A study of Mus musculus with 6 samples.

Results

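The proteasome genes of mouse Achilles tendon cells were examined after 24 h in medium conditioned by dorsal root ganglia (DRG). Members were all entries of the deposited table whose symbol begins with Psma, Psmb, Psmc, Psmd, Psme, Psmf or Psmg and a digit, leaving out 1 pseudogene entry, which gave 50 of 24413 genes. By known role, 31 encode constitutive subunits of the core particle and its regulatory cap, 5 are interferon-inducible (Psmb8, Psmb9, Psmb10, Psme1 and Psme2), and 2 encode tissue forms (Psma8 and Psmb11). Of the other 12, 7 encode assembly chaperones, 2 encode the caps Psme3 and Psme4, and 1 each is the cap copy Psme2b, the regulator Psmf1 and Psmc3ip, a recombination protein that shares only the symbol prefix.

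The conditioned group received DRG medium and the control group received medium with 1% fetal bovine serum (FBS), with 3 bulk RNA-seq libraries in each. In both groups the cells came from male Tppp3ECE/+;R26RtdT-CreERT2;Scx-GFP mice aged 12 weeks, in which tdT reports Cre activity driven by Tppp3 and GFP reports Scx; 3 mice gave tendons, and cells were sorted by tdT and GFP fluorescence and are labelled Tppp3+. Ganglia of 3 male C57BL/6J mice, also aged 12 weeks, were first grown for 4 to 5 days in the presence of the antimitotic agents 5-fluoro-2-deoxyuridine and uridine, each at 20 µM. Their medium was then replaced by αMEM with 1% FBS, harvested daily and passed through a 0.22 µm filter. Factors released by the ganglia, nutrients they used up and drug residue cannot be told apart in this design. No label ties a library to an animal, so each p-value reflects library-to-library variation, some of it possibly technical.

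The proteasome degrades proteins tagged with ubiquitin. Its 20S core is a barrel of alpha rings, which gate entry, around beta rings, in which Psmb5, Psmb6 and Psmb7 carry the cutting sites, and the 19S cap recognises, unfolds and feeds in substrates. Interferons induce Psmb8, Psmb9 and Psmb10, which replace Psmb5, Psmb6 and Psmb7 in newly built cores (the immunoproteasome), and Psme1 and Psme2, which form the PA28 cap; both changes alter the peptides made for display on major histocompatibility complex (MHC) class I. The constitutive subunits are instead raised together by the transcription factor NRF1 (Nfe2l1) when proteasome capacity falls short.

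Promoter sequences of the 3 members that passed the test below, of Psmb9, and of the constitutive counterparts Psmb5 and Psmb6 are shown, because these are the genes on which the contrast between inducible and constitutive subunits turns. Each spans 250 bases before to 50 bases after the annotated start and reads 5′ to 3′ on the gene's strand, from RefSeq on GRCm38.p6. These RefSeq starts differ from the ends of the gene spans given further below, and the Psmb8, Psme1 and Psmb9 windows lie inside those spans. The windows are chr17:34197945-34198244 (plus strand) for Psmb8, chr14:55578244-55578543 (plus) for Psme1, chr17:34187281-34187580 (minus) for Psmb9, chr8:105938343-105938642 (minus) for Psmb10, chr14:54617946-54618245 (minus) for Psmb5 and chr11:70525107-70525406 (plus) for Psmb6. Capitals mark, on either strand, the interferon-stimulated response element core, read as GAAA, any 2 bases and GAAA again (in Psme1), the gamma-activated sequence TTCNNNGAA (in Psmb8) and the antioxidant response element core TGACNNNGC (in Psmb5 and Psmb6).
Psmb8: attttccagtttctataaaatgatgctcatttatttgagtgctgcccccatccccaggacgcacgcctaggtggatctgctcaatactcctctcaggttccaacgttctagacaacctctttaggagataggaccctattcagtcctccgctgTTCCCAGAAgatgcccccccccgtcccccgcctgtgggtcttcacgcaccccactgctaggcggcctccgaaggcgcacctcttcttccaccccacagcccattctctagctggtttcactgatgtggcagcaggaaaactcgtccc
Psme1: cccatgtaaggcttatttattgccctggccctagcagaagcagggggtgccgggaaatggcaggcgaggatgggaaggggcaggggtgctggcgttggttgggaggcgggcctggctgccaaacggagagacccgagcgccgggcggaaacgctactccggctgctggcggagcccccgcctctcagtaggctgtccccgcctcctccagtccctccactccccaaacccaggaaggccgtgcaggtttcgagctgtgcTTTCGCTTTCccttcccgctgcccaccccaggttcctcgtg
Psmb9: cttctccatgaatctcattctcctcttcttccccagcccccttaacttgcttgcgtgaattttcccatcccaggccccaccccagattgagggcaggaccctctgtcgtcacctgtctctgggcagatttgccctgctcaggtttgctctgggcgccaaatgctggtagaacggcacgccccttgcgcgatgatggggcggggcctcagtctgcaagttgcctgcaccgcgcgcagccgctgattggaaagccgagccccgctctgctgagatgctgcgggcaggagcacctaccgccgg
Psmb10: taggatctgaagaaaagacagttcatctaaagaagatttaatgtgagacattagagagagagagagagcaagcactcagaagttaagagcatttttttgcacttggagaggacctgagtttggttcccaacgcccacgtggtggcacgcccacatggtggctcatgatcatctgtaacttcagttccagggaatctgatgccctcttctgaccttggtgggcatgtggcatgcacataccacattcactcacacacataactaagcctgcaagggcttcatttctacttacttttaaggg
Psmb5: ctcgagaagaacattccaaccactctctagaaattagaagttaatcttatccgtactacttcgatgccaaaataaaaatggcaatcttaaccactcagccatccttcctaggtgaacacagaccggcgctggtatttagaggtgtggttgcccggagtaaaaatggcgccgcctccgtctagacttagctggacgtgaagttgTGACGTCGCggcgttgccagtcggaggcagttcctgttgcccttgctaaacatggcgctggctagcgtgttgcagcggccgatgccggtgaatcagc
Psmb6: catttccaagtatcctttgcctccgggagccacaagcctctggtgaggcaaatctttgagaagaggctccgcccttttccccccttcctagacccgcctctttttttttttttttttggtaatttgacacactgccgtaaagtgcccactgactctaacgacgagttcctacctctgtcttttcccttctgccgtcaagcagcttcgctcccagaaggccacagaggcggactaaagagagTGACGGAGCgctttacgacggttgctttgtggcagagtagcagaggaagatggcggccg

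Among the 5 inducible members, the interferon-stimulated response element core was present in 1 (Psme1, beginning 10 bases after its RefSeq start). TTCNNNGAA was present in 1 (Psmb8, beginning 97 bases before its RefSeq start). Over all 32851 RefSeq mouse promoters of the same length, 3.44% held the interferon-stimulated response element core, 8.3% held TTCNNNGAA and 12.4% held TGACNNNGC. Counted per gene, as the members are here, the shares were 3.99%, 9.55% and 14% of 27025 genes with an entry. Of the 25 constitutive subunits with an entry, 2 held the interferon-stimulated response element core (Psmb3 and Psmd4). Of the same 25, 1 held TTCNNNGAA (Psmd2) and 4 held TGACNNNGC (Psmb5, Psmb6, Psmc6 and Psmd12). None of the 5 inducible promoters held TGACNNNGC, and Psmb9, Psmb10 and Psme2 held none of these 3 motifs in this window. Both strands were searched, and a match describes letters, not a bound site.

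With conditioned medium, mRNA of 3 of the 4 tested inducible proteasome subunits rose, while no constitutive subunit, other cap or chaperone passed the test. Levels are FPKM (fragments per kilobase of gene, scaled to library depth), and the test was limma on log2(FPKM + 1) for the 11678 genes averaging 1 FPKM or more, two-sided, with Benjamini-Hochberg adjustment over those genes and a threshold of 0.05. Of the 50 members, 47 had that mean and were tested. Psmb8, Psmb10 and Psme1 rose, 0 members fell and 44 did not pass. The Psme1 call held in only 8 of 15 alternative settings, against 15 of 15 for Psmb10 and 14 of 14 for Psmb8. Over all genes tested, 6.53% changed in either direction, 4.04% being higher and 2.49% lower, so the members' overall share of 3 in 47 (6.38%) was near the background. All 3 calls were among the 4 inducible members tested. At an unadjusted p below 0.05 stood 7 members, against 19.6% of all genes tested, and voom on whole fragments recovered from the FPKM values called 4 members (Psme2 in addition), against 9.06%.

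Psmb10, which carries the trypsin-like site of the immunoproteasome, was the most abundant of the inducible catalytic subunits. It measured 18.6, 17.3 and 19.6 FPKM in the conditioned libraries, against 11.6, 11.9 and 13.3 FPKM in the control libraries. Every conditioned library lay above every control library. The log2 fold change was 0.55 ± 0.06 (SE), with an adjusted p of 0.0017.

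Psmb8 carries the chymotrypsin-like site and helps complete immunoproteasome assembly. It measured 5.75, 5.59 and 4.98 FPKM in the conditioned libraries, against 2.64, 2.97 and 3.50 FPKM in the control libraries. The groups did not overlap, with the lowest conditioned library at 4.98 FPKM and the highest control library at 3.50 FPKM. The log2 fold change was 0.68 ± 0.09, with an adjusted p of 0.0030, which was the largest change among the tested members.

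Psmb9, the counterpart of the caspase-like Psmb6, was expressed at a low level, below the filter. It measured 1.13, 0.959 and 1.26 FPKM in the conditioned libraries, from 90, 66 and 108 fragments, against 0.530, 0.625 and 0.501 FPKM in the control libraries, from 45, 60 and 37 fragments. The groups did not overlap. The ratio of the group means was 2.02, and the exact two-sided permutation test gave p = 0.10, the smallest that 3 against 3 libraries allow. With no level filter, limma gave a log2 fold change of 0.45 and an adjusted p of 0.059, whereas voom gave 1.01 and 0.0074. Psmb9 shares 212 bases with the more abundant Tap1, whose fragments may not have been kept apart.

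Psme1 and Psme2 encode the alpha and beta subunits of PA28, which opens the core gate without ubiquitin. Psme1 measured 29.4, 29.3 and 27.0 FPKM in the conditioned libraries, against 23.7, 23.4 and 25.2 FPKM in the control libraries. The groups did not overlap, and the log2 fold change was 0.24 ± 0.05, with an adjusted p of 0.026. This call was lost when conditioned replicate 1 (adjusted p = 0.11), conditioned replicate 2 (0.11), control replicate 1 (0.057) or control replicate 2 (0.10) was left out.

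Psme2 measured 24.9, 24.0 and 24.3 FPKM in the conditioned libraries, against 19.9, 17.2 and 22.6 FPKM in the control libraries. The conditioned libraries were close together above a wider spread of control libraries. The log2 fold change was 0.29 ± 0.09 and did not pass, with an adjusted p of 0.12; voom gave 0.31 with an adjusted p of 0.026, and leaving out control replicate 3, the highest control, gave 0.38 with 0.023. Leaving out control replicate 2, the lowest control, gave 0.19 with 0.17, and without any of the other 4 libraries the adjusted p was 0.22 to 0.28. The ratio of Psme1 to Psme2 averaged 1.17 ± 0.05 in conditioned and 1.22 ± 0.13 in control libraries (SD, n = 3 each), and the groups overlapped.

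Psme2b is a single-exon copy whose transcript was 99.4% identical to that of Psme2 over 794 aligned bases, so how fragments were divided between these entries is uncertain. It measured 18.95, 22.1 and 23.0 FPKM in the conditioned libraries, against 18.0, 26.0 and 27.8 FPKM in the control libraries. The groups overlapped, and the log2 fold change of -0.14 ± 0.18 did not pass, with an adjusted p of 0.74. Its size rested on single libraries, being -0.32 (adjusted p = 0.089) without control replicate 1 and -0.02 (0.96) without control replicate 3.

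**Figure D1:**
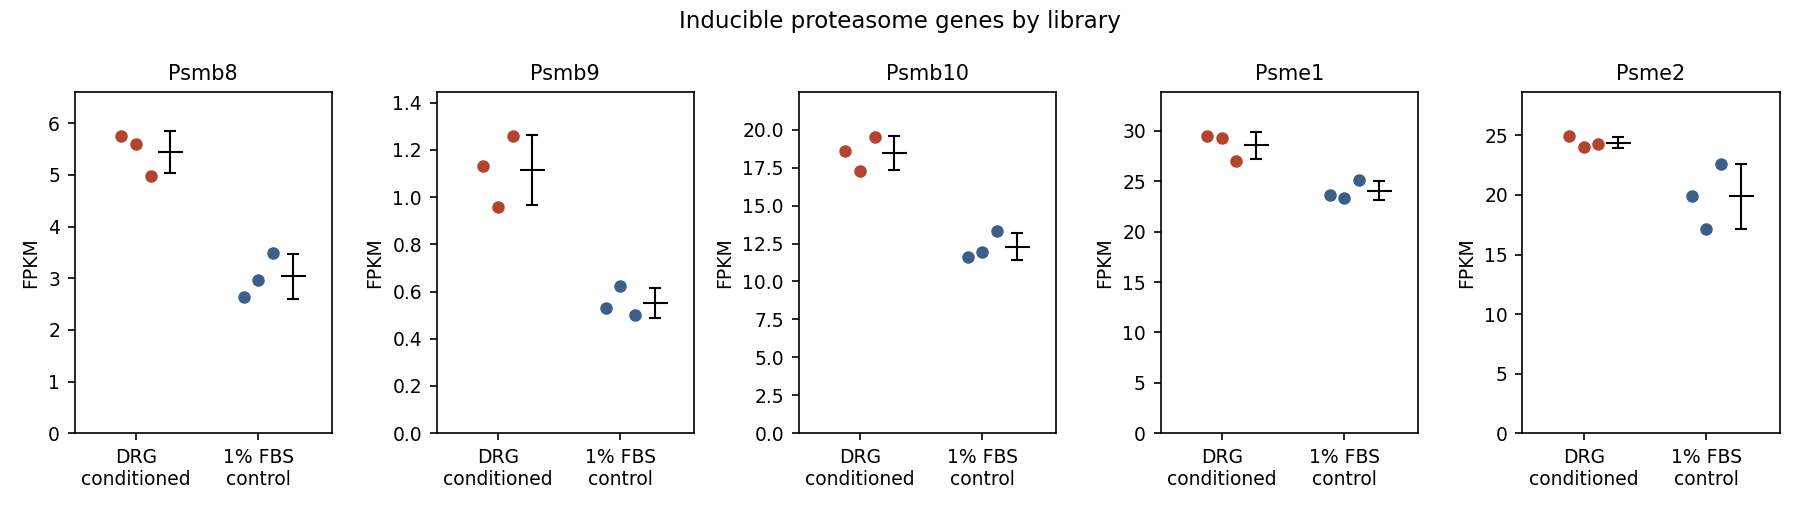
FPKM of the 5 inducible members in each of the 3 DRG-conditioned libraries (red, left) and the 3 control libraries with 1% FBS (blue, right); horizontal bars give the mean and whiskers the SD. In each panel the lowest conditioned library lies above the highest control library, by the widest margin relative to its level for Psmb9 (0.959 against 0.625 FPKM) and the narrowest for Psme2 (24.0 against 22.6 FPKM).

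None of the constitutive counterparts passed the test. Psmb5, the standard chymotrypsin-like subunit, measured 75.7, 71.7 and 71.0 FPKM in the conditioned libraries, against 64.8, 66.2 and 69.9 FPKM in the control libraries. Its groups did not overlap, but the log2 fold change of 0.12 ± 0.04 did not pass after adjustment (adjusted p = 0.16). It was the highest value among the 31 constitutive subunits.

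Psmb6, the standard caspase-like subunit, measured 36.8, 37.2 and 38.3 FPKM in the conditioned libraries, against 38.2, 40.3 and 42.8 FPKM in the control libraries. Its log2 fold change of -0.11 ± 0.05 was the lowest among the constitutive subunits and did not pass (adjusted p = 0.26). Psmb7, the standard trypsin-like subunit, measured 14.8, 13.7 and 13.8 FPKM in the conditioned libraries, against 13.4, 14.7 and 14.5 FPKM in the control libraries. Both genes overlapped between the groups, and the log2 fold change of Psmb7 was -0.01 ± 0.05 (adjusted p = 0.96).

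The inducible form made up a larger share of each catalytic pair with conditioned medium. Psmb8 was 7.05, 7.24 and 6.55% of the summed FPKM of Psmb8 and Psmb5 in the conditioned libraries, against 3.92, 4.29 and 4.77% in the control libraries. Psmb9 was 2.98, 2.51 and 3.18% of Psmb9 and Psmb6 in the conditioned libraries, against 1.37, 1.53 and 1.16% in the control libraries. Psmb10 was 55.6, 55.7 and 58.6% of Psmb10 and Psmb7 in the conditioned libraries, against 46.6, 44.8 and 47.8% in the control libraries. None of the 3 shares overlapped between the groups, and no test was run on them. The shares reuse the FPKM values given above, and 14.3% of all genes tested were higher without overlap.

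Psmb10 mRNA thus stood near the level of its counterpart in both groups, whereas Psmb8 and Psmb9 mRNA stood far below theirs. Shares of FPKM depend on the gene lengths by which fragments were divided, which the recovered steps put at 2736 bases for Psmb8, 3659 for Psmb9 and 1705 for Psmb10, against 899 for Psmb5, 1872 for Psmb6 and 3421 for Psmb7. The lengths cancel when the FPKM ratio of inducible to constitutive gene is set between groups. The mean ratio, conditioned over control, was 1.65 times as high for Psmb8 to Psmb5, 2.17 times for Psmb9 to Psmb6 and 1.51 times for Psmb10 to Psmb7.

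**Figure D2:**
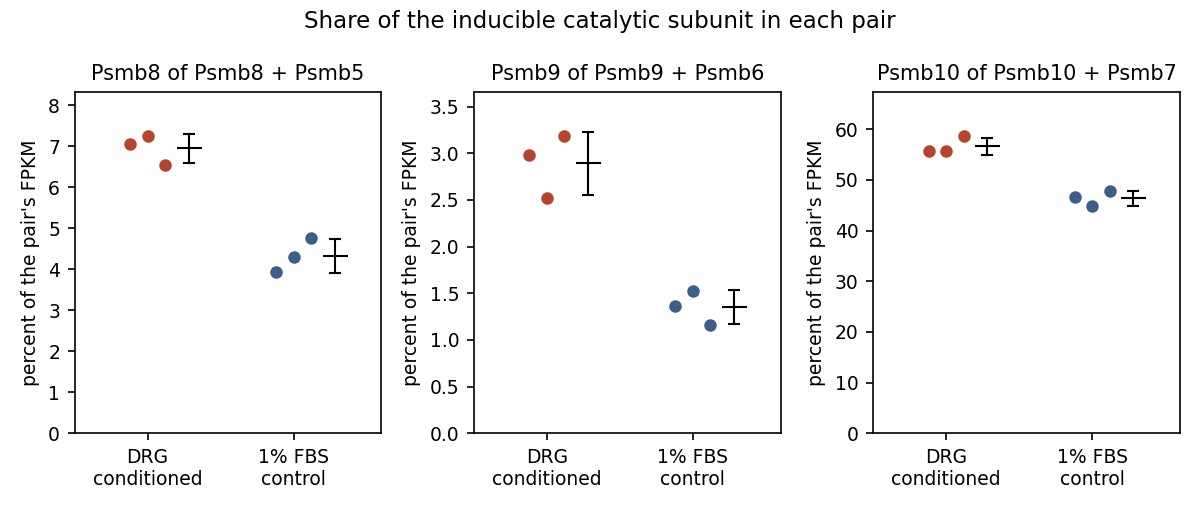
Share of Psmb8, Psmb9 and Psmb10 in the summed FPKM of each gene and its constitutive counterpart (percent), for the 3 DRG-conditioned libraries (red, left) and the 3 control libraries (blue, right), with mean and SD. The mean share was 6.95% in conditioned and 4.33% in control libraries for Psmb8, 2.89% and 1.35% for Psmb9, and 56.7% and 46.4% for Psmb10, with no overlap in any panel.

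The other caps did not pass the test. Psme3, the nuclear PA28 gamma, measured 30.4, 31.1 and 31.5 FPKM in the conditioned libraries, against 34.5, 32.5 and 32.3 FPKM in the control libraries. Every conditioned library lay below every control library, yet the log2 fold change of -0.09 ± 0.04 did not pass (adjusted p = 0.25). Psme4, the PA200 cap known for a role in histone degradation, measured 17.8, 19.4 and 17.6 FPKM in the conditioned libraries, against 19.7, 18.5 and 18.1 FPKM in the control libraries. Its groups overlapped (log2 fold change -0.04 ± 0.05, adjusted p = 0.76). The FPKM ratio of Psme1 to Psme3 averaged 0.923 ± 0.058 in conditioned and 0.728 ± 0.047 in control libraries, and that of Psme2 to Psme3 averaged 0.788 ± 0.027 in conditioned and 0.602 ± 0.088 in control libraries (SD, n = 3 each). Neither ratio overlapped between the groups, and neither was tested. Both ratios reuse the FPKM values already given for these genes.

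The 31 constitutive subunits stayed within a narrow range. Limma called 0 of them, voom called 0, and 2 (Psmb5 and Psma2) had an unadjusted p below 0.05. Their log2 fold changes ran from -0.11 to 0.12 with a median of -0.02, against 0.42 for the 4 tested inducible members and 0.01 for all genes tested. The 95% intervals of all 31 lay between -0.23 and 0.22 on the log2 scale. Their summed FPKM was 1099, 1102 and 1088 in the conditioned libraries, against 1073, 1106 and 1141 in the control libraries, and overlapped. That of the 5 inducible members was 79.8, 77.2 and 77.1 in the conditioned libraries, against 58.4, 56.1 and 65.1 in the control libraries, and did not overlap.

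Full separation of the groups was common in the table as a whole. The conditioned and control libraries did not overlap for 11 of the 47 tested members, against 26.0% of all genes tested. Of these, 6 were higher (Psmb8, Psmb10, Psme1, Psme2, Psmb5 and Psmd8) against a background of 14.3%, and 5 were lower (Psma2, Psmc4, Psmd13, Psmd14 and Psme3) against 11.6%.

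In the alpha ring, whose 7 subunits gate the core, log2 fold changes had a median of -0.04 and 0 passed. Psma4, at the upper end, measured 37.7, 37.7 and 37.2 FPKM in the conditioned libraries, against 32.8, 40.5 and 38.9 FPKM in the control libraries (log2 fold change 0.01). Psma2, at the lower end, measured 21.2, 21.6 and 20.4 FPKM in the conditioned libraries, against 22.5, 22.7 and 22.5 FPKM in the control libraries (-0.09, adjusted p = 0.22). Control libraries spread on both sides of the conditioned ones for Psma4, while for Psma2 they all lay above.

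The 4 beta subunits without a cutting site had a median log2 fold change of -0.03. Psmb1, at the upper end, measured 28.4, 28.9 and 27.3 FPKM in the conditioned libraries, against 28.2, 27.9 and 29.0 FPKM in the control libraries (-0.01). Psmb4, at the lower end, measured 55.3, 56.8 and 54.1 FPKM in the conditioned libraries, against 54.8, 54.5 and 63.2 FPKM in the control libraries (-0.05). For Psmb4, control replicate 3 stood above the other libraries.

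The 6 ATPases of the 19S base unfold substrates, and they had a median log2 fold change of -0.02. Psmc5, at the upper end, measured 63.6, 63.5 and 65.2 FPKM in the conditioned libraries, against 56.1, 65.4 and 63.6 FPKM in the control libraries (0.06, adjusted p = 0.65). Psmc4, at the lower end, measured 33.8, 34.3 and 33.5 FPKM in the conditioned libraries, against 34.3, 38.2 and 35.9 FPKM in the control libraries (-0.09, adjusted p = 0.32). The groups touched without overlapping for Psmc4.

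The 11 other 19S subunits include the scaffold subunits Psmd1 and Psmd2, the ubiquitin receptor Psmd4 and the deubiquitinase Psmd14, and had a median log2 fold change of -0.02. Psmd8, a lid subunit at the upper end, measured 49.7, 48.9 and 48.9 FPKM in the conditioned libraries, against 46.3, 46.0 and 47.8 FPKM in the control libraries (0.07, adjusted p = 0.28). Psmd1, at the lower end, measured 18.95, 19.5 and 19.6 FPKM in the conditioned libraries, against 22.1, 19.6 and 20.0 FPKM in the control libraries (-0.08, adjusted p = 0.45). Constitutive levels differed far more between genes than between groups, with group means from 12.6 FPKM (Psmd11) to 72.8 FPKM (Psmb5) in conditioned libraries and from 12.3 FPKM (Psmd11) to 69.3 FPKM (Psmd2) in control libraries.

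**Figure D3:**
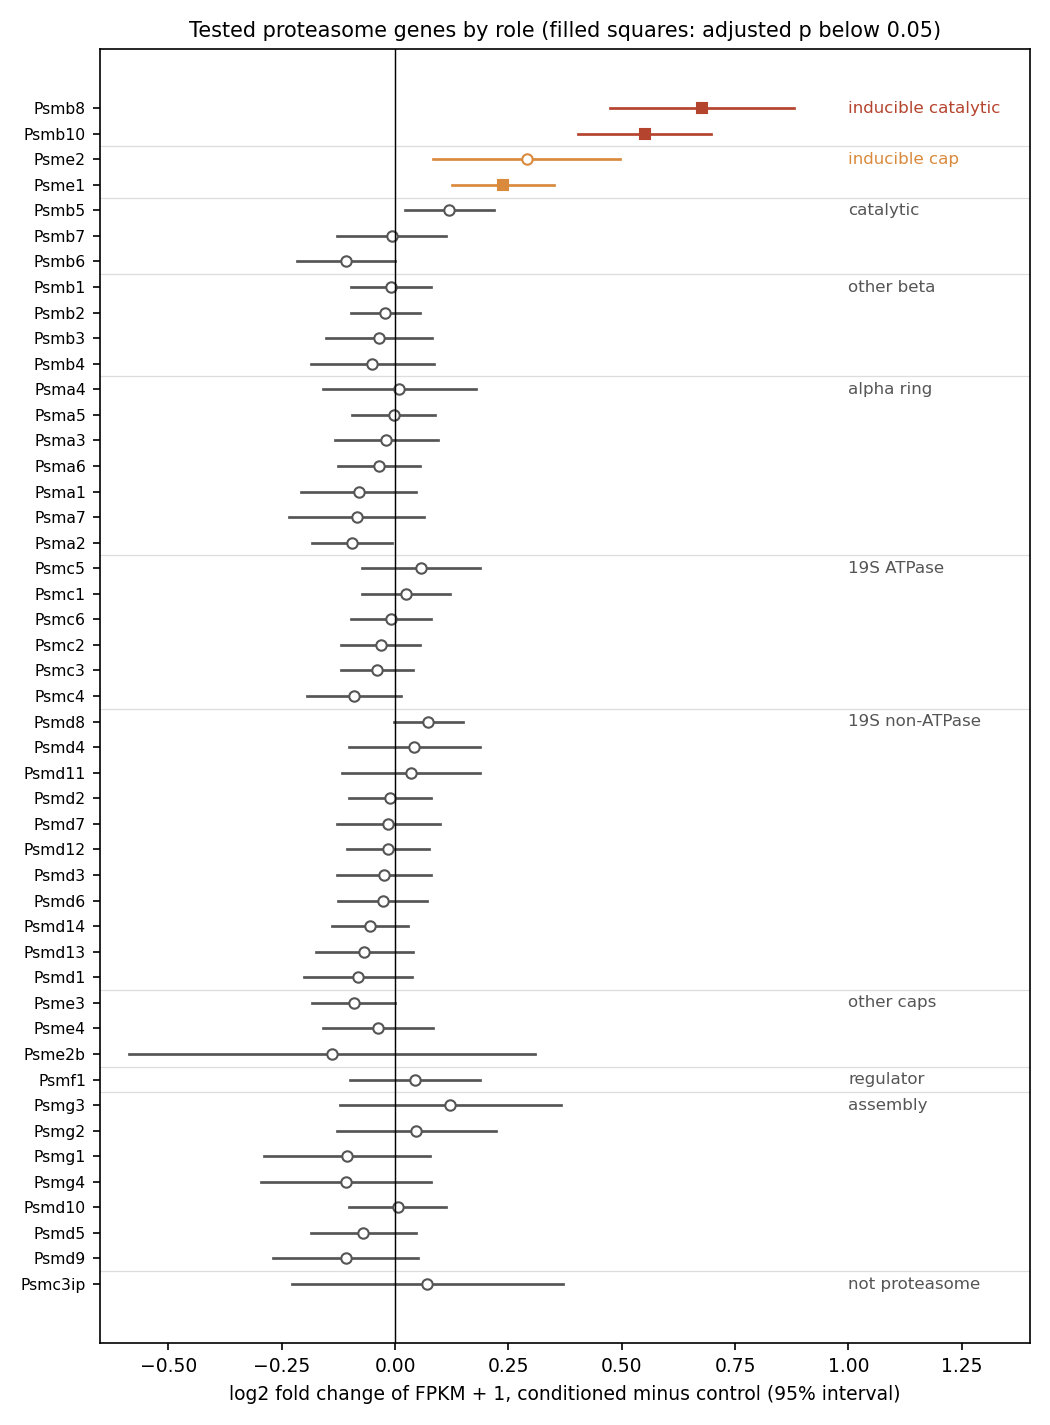
Log2 fold change of FPKM + 1, DRG-conditioned minus control, for the 47 tested members ordered by role; horizontal lines are 95% intervals and filled squares mark an adjusted p below 0.05. The 4 inducible members lie between 0.24 and 0.68, to the right of the 31 constitutive subunits, which lie between -0.11 and 0.12.

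Assembly factors did not pass either. The 4 chaperones of core assembly (Psmg1 to Psmg4) had log2 fold changes between -0.11 and 0.12. Psmg3 measured 1.65, 1.43 and 1.78 FPKM in the conditioned libraries, against 1.09, 1.61 and 1.56 FPKM in the control libraries (0.12, adjusted p = 0.59). Psmg4 measured 8.70, 9.29 and 7.67 FPKM in the conditioned libraries, against 8.69, 8.93 and 10.3 FPKM in the control libraries (-0.11, adjusted p = 0.53). Both overlapped between the groups.

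The 3 chaperones of 19S assembly were Psmd5, Psmd9 and Psmd10. Psmd10 measured 14.5, 14.2 and 13.7 FPKM in the conditioned libraries, against 14.3, 14.5 and 13.4 FPKM in the control libraries (0.01, adjusted p = 0.97). Psmd9 measured 3.18, 2.68 and 2.90 FPKM in the conditioned libraries, against 3.07, 3.19 and 3.41 FPKM in the control libraries (-0.11, adjusted p = 0.45). Limma and voom each called 0 of the 7 chaperones, and 0 had an unadjusted p below 0.05.

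Psmf1, the regulator PI31, measured 4.45, 4.45 and 4.47 FPKM in the conditioned libraries, against 3.90, 4.46 and 4.54 FPKM in the control libraries (0.04, adjusted p = 0.77). Psmc3ip, the recombination protein, measured 1.16, 0.936 and 1.17 FPKM in the conditioned libraries, against 0.924, 1.38 and 0.709 FPKM in the control libraries (0.07, adjusted p = 0.82). Both overlapped between the groups.

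Tissue forms stayed below the level filter. Psma8, the germ-cell form of the alpha ring, measured 0.434, 0.722 and 0.352 FPKM in the conditioned libraries, from 16, 23 and 14 fragments, against 0.483, 0.518 and 0.498 FPKM in the control libraries, from 19, 23 and 17 fragments, and the groups overlapped. Psmb11, the form of thymic epithelium, had 0, 2 and 2 fragments in the conditioned libraries, against 1, 2 and 1 in the control libraries. No library exceeded the 3 fragments that a count of 0 allows, so no fold is given for Psmb11.

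Genes that work with the proteasome but carry other symbols did not pass. Of 17 partners tested (ubiquitin receptors, shuttle factors, deubiquitinases and maturation factors), limma called 0, voom called 0, and 0 had an unadjusted p below 0.05, with a median log2 fold change of 0.04. Over all genes tested, limma called 6.53%, voom called 9.06%, and 19.6% had an unadjusted p below 0.05. Pomp, which matures the core, had a log2 fold change of 0.03 ± 0.05, and the 19S ubiquitin receptor Adrm1 had 0.06 ± 0.04. Of the 8 genes around NRF1, limma and voom each called 0 and 0 had an unadjusted p below 0.05, with Nfe2l1 itself at 0.03 ± 0.04. Among 6 ubiquitin and E1 genes, 1 rose. It was Uba7, the E1 enzyme for the ubiquitin-like ISG15, which measured 5.32, 5.38 and 5.90 FPKM in the conditioned libraries, against 2.43, 2.65 and 2.56 FPKM in the control libraries (0.88 ± 0.06, adjusted p = 9.5e-05). The other 5, including the ubiquitin gene Ubb and the main ubiquitin E1 Uba1, did not pass.

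Interferon transcription factors and genes of MHC class I loading rose in part. Of 5 tested transcription factors, 3 rose: Irf7 (log2 fold change 1.65), Stat2 (1.11) and Irf9 (0.62), with adjusted p-values of at most 0.00014. Among all genes tested, 4.04% were higher, and these factors were chosen with earlier results of these data known. Irf1, a known activator of Psmb8, Psmb9 and Psmb10, measured 6.88, 5.71 and 6.09 FPKM in the conditioned libraries, against 6.17, 6.40 and 6.57 FPKM in the control libraries (-0.03, adjusted p = 0.84). Nlrc5, an activator of MHC class I genes, was below the filter at 0.287, 0.419 and 0.336 FPKM in the conditioned libraries, against 0.137, 0.157 and 0.193 FPKM in the control libraries. Its groups did not overlap, and the ratio of the group means was 2.14, from 187 fragments in conditioned and 95 in control libraries.

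Of 11 genes of MHC class I loading, 7 rose and 0 fell, with a list median of 0.24: Tap1 (0.35), H2-D1 (0.31), H2-K1 (0.28), Tap2 (0.27), Erap1 (0.27), Tapbp (0.24) and B2m (0.21). Over all genes tested, 4.04% were higher and 2.49% lower, and the list was chosen with earlier results of these data known. Tap1 and Tap2 form the transporter that moves proteasome products into the endoplasmic reticulum. The count fell to 0 without conditioned replicate 1, 1 without conditioned replicate 2, 2 without conditioned replicate 3 and 1 without control replicate 2.

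**Figure D4:**
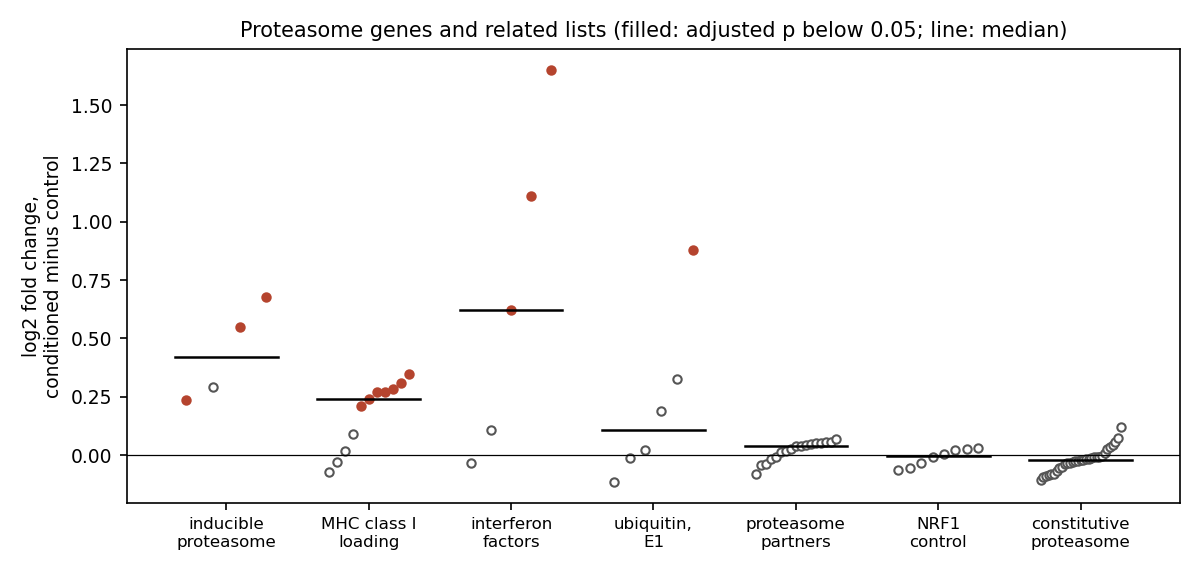
Log2 fold changes, DRG-conditioned minus control, of the tested inducible and constitutive proteasome genes and of 5 related lists; each point is a gene, filled where the adjusted p was below 0.05, and horizontal lines are medians. The interferon factors reach 1.65 and the inducible proteasome genes 0.68, while proteasome partners and NRF1-related genes lie between -0.08 and 0.07.

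Psmb8 and Psmb9 lie together with Tap1 and Tap2 in the MHC region. In the annotation of the mm10 assembly, Psmb9 spans chr17:34181987-34187764 (minus strand) and Psmb8 spans chr17:34197721-34201454 (plus strand), and the start of Psmb9 is 211 bases from that of the divergent Tap1. Psme1 (chr14:55578123-55581529, plus) and Psme2 (chr14:55587441-55591113, minus) also lie close together, with starts 12990 bases apart, and Psmb10 spans chr8:105935735-105938444 (minus). Among the 9 tested genes within 20000 bases of an inducible member, other than those members, 3 rose (Tap1, Tap2 and Irf9) and 0 fell. Over all genes tested, 4.04% were higher and 2.49% lower, and these 3 genes are already counted in the lists above. Of the neighbours that did not pass, Emc9, next to Psme1, had a log2 fold change of 0.29 (adjusted p = 0.098). Rnf31, next to Psme2, had 0.14 (0.32), and Lcat, next to Psmb10, had -0.32 (0.15).

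Because the protocols describe both directional and non-directional libraries, fragments from overlapping genes on opposite strands may not have been separated. The spans of Psmb9 and Tap1 share 212 bases and those of Psme1 and Emc9 share 14 bases. Tap1 averaged 11.4 FPKM in conditioned and 8.77 FPKM in control libraries, far above Psmb9 at 1.12 and 0.552 FPKM. How much of the Psmb9 values came from Tap1 was not tested. Antisense entries over Psmb8 (Gm20496, 0.0214 FPKM in conditioned and 0.120 FPKM in control libraries) and Psmb10 (Gm16156, 0.0613 and 0.0665 FPKM) were low. Psmb7 shares 6571 bases with Nek6.

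Libraries held 18774550 to 26061245 recovered fragments. Tppp3 itself, the gene of the label, was near 1 FPKM in every library (0.777 to 1.12 FPKM in conditioned and 0.724 to 1.05 FPKM in control libraries). Of 9 tested tendon lineage markers, 6 fell and 0 rose, against 2.49% lower and 4.04% higher over all genes tested. The others did not pass: Scx (log2 fold change -0.18), Mkx (0.005) and Pdgfra (0.17). Of 1 tested marker each of endothelium, DRG neurons and glia, Tek and Tubb3 fell and S100b did not pass. The part of these marker shifts in the proteasome results was not tested. Leukocytes express the inducible subunits constitutively. Of 14 leukocyte markers, 9 were in the table, and their summed level was 3.66 to 4.75 FPKM in conditioned and 4.38 to 5.98 FPKM in control libraries. Ptprc, which marks all leukocytes, was at most 0.0093 FPKM in conditioned and 0.0027 FPKM in control libraries. The 2 tested markers differed in direction and neither passed. Lyz2 averaged 1.79 FPKM in conditioned and 2.68 FPKM in control libraries, and Cd68 averaged 1.62 and 1.39 FPKM. Of the markers below the filter, Adgre1, Csf1r, Fcer1g, Laptm5, Coro1a and Cd74 averaged lower with conditioned medium and Ptprc higher. The part of leukocytes in the proteasome results was not tested. Fewer cells of a type and less RNA per cell cannot be told apart in bulk libraries.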

How the data were processed

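Bulk poly-A RNA-seq of 6 libraries was analysed. The authors deposited 1 table of FPKM values with 1 column per library; CASAVA, HISAT2 2.0.5 and the mm10 build are listed, with no roles, per the submitters' processing notes. For the counting program, annotation release and strand setting, the entry is: not given in the sources used here. Members and gene lists were chosen with earlier results of these data known. Some genes of the related lists are not reported here. Every member is accounted for, and values in every library are given for inducible members and their counterparts, members that passed or were below the filter, and the highest and lowest log2 fold change in each role.

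Values were tested as log2(FPKM + 1), which understates changes of low genes, with limma 3.58.1 in R 4.3.3 (mean-variance trend, robust prior, no covariate), checked on simulated data. Within each gene, FPKM were whole multiples of 1 fragment (tolerance 1e-06 of a fragment, 24413 of 24413 genes), which gave the recovered fragments. Counts of 0 allow up to 3 fragments, counting error only. No library repeated another (chi-square per degree of freedom 3.15 to 7.02 within groups). Same-numbered libraries deviated with correlations of -0.09, -0.01 and -0.05, so replicate numbers were not taken as pairs. Alternatives were another pseudocount, filters, scalings, priors, a replicate block, voom, and each library left out. RefSeq promoters matched 42 members. Tables used Python 3.11.15, numpy 2.4.6, pandas 2.3.3 and matplotlib 3.10.9.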

Additional observations from a re-analysis of the deposited data

How the results depend on the processing

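Psmb10 stayed called in 15 of 15 alternatives and Psmb8 in 14 of 14, Psme1 in 8 of 15 and Psme2 in 3 of 15. No member outside the inducible class was called in any alternative, and 0 members were lower in each. Leaving out each library in turn gave 2 to 4 members changed (3 with all), 394 to 676 genes changed (763 with all), a median difference between inducible and constitutive members of 0.40 to 0.49 (0.44 with all) and 0 to 6 changed MHC class I loading genes (7 with all). Without a low filter, 492 genes and 1 MHC class I gene changed, and Psme1 was lost (adjusted p = 0.077). With a filter of 5 FPKM the median difference was 0.31 and 0 ubiquitin and E1 genes changed, since Psmb8 and Uba7 then fall below the filter. With neither trend nor robust prior, 3 MHC class I genes changed and Psme1 was lost (0.060). The replicate block, which the labels' numbers do not justify as pairs, gave 390 genes and 1 MHC class I gene changed and lost Psme1 (0.12). Voom without a filter, chosen after seeing the data, gave 5 members and a difference of 0.62, with Psmb9 tested.

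Directions near 0, none of them called, turned by quantile normalization for Psmd10 (-0.022), Psma4 (-0.010), Psmc5 (-0.00080) and Nfe2l1 (-0.027), by median-of-ratios scaling for Psmd10 (-0.0011), by voom for Psmd10 (-0.0084) and Psma4 (-0.00084), and by voom without a filter for Psmd10 (-7.2e-05). Leaving out single libraries took the log2 fold change across 0 for Psmd10 (-0.026 to 0.029), Psma4 (-0.080 to 0.069), Psmc5 (-0.0089 to 0.0999), Psmb7 (-0.048 to 0.016), Psmb1 (-0.025 to 0.014), Psmf1 (-0.012 to 0.076), Psmb4 (-0.087 to 0.018), Psmc3ip (-0.037 to 0.13) and Irf1 (-0.098 to 0.018). Emc9 passed without control replicate 1 (0.026). Apart from the calls that depend on which genes were tested, the cause was not tested. Depth limits Psmb9, Psma8 and Psmb11, which had 108 fragments or fewer per library. It also limits the tested members Psmc3ip (26 to 66 fragments per library), Psmg3 (73 to 122) and Psmg4 (97 to 130).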
